A study of Mus musculus with 6 samples.

Results

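Most cells cannot break down cholesterol and must either store it or pass it on. Sterol that arrives with lipoproteins or with engulfed membrane is released in lysosomes, leaves them through a pair of sterol-binding proteins, and is then esterified for storage or pumped across the cell membrane to acceptors such as apolipoprotein E. The liver X receptors (LXRs) are nuclear receptors that sense oxidized sterols and switch on the genes of this export route in macrophages, the lineage from which osteoclasts form. Osteoclasts also depend on membrane cholesterol to fuse and survive, and their lysosomes release their contents onto bone during resorption.

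The levels of 10 named genes of this route were read from RNA-Seq counts of 55573 mouse genes in 6 osteoclast libraries. The genes are *Nr1h2* and *Nr1h3* (the LXRs), *Abca1* and *Abcg1* (efflux transporters), *Apoe* and *Lpl* (a lipoprotein and a lipoprotein lipase), *Lipa*, *Npc1* and *Npc2* (release and export of sterol in lysosomes) and *Soat1* (esterification). They were taken by name, each matched 1 Ensembl identifier, and all 10 were among the 16954 genes that were tested, those whose 6 libraries together held 10 counts or more. The 3 Rosa-Hes1 libraries came from male mice that carried a Cre recombinase inserted in the cathepsin K gene (*Ctsk*) and *Hes1* coding sequence with a green fluorescent protein in the *Rosa26* locus, behind a STOP cassette that Cre removes. The 3 control libraries came from male mice that the labels call wild type and the methods describe as littermates that carried the *Rosa26* construct with the STOP cassette in place, without Cre. The *Rosa26* line was obtained in an ICR background and the *Ctsk* line in C57BL/6. The mice were 10 weeks old, and bone marrow-derived macrophages of both groups were cultured for 4 days with RANKL, the ligand that drives osteoclast differentiation (10 ng/ml), and the macrophage growth factor M-CSF (30 ng/ml). Because Cre was made from *Ctsk*, HES1 was released in cells that had begun to differentiate, and no sorting of osteoclasts from their precursors before RNA extraction is described. The labels call the replicates biological but do not say which animal or culture each came from, so that p-values measure the spread between these libraries.

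The libraries held 13038362 to 15956331 counts in genes, and levels are given in CPM (a gene's counts per 1000000 counts of the library, whose size edgeR adjusts by its TMM factor). *Hes1*, which checks the labels, had 4.95, 4.83 and 6.91 CPM in the Rosa-Hes1 libraries and 0.517, 0.557 and 0.296 CPM in the control libraries, so that the groups stood apart (log2 fold change 3.57, adjusted p = 0.00477 from edgeR). Of 11 osteoclast marker genes, 10 were higher in Rosa-Hes1 libraries (5.85% of all tested genes were) and *Ctsk* did not pass. The summed level of the 11 was 17499 to 20434 CPM in Rosa-Hes1 libraries, against 10991 to 14128 CPM in control libraries. The paper had already reported most of these markers as increased in its RNA-Seq, so the count is no independent result. Of 11 macrophage marker genes, *Cd68* was higher and *Cx3cr1* was lower (2.41% of all tested genes were lower). Their summed level was 8919 to 10435 CPM in Rosa-Hes1 libraries and 9079 to 10832 CPM in control libraries. Markers of T and NK cells summed to at most 0.218 CPM in any library, with *Cd3e* and *Cd3g* at 0, those of B cells to at most 5.52 CPM, those of neutrophils to 159 to 199 CPM in Rosa-Hes1 libraries and 163 to 297 CPM in control libraries, and those of osteoblasts and stroma to 114 to 401 CPM in Rosa-Hes1 libraries and 189 to 535 CPM in control libraries. In these bulk libraries, more cells of a type and more RNA per cell cannot be told apart, and the part of the higher osteoclast markers in the values given here was not tested.

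The promoters of members are shown because LXRs and HES1 both act on DNA, through known motifs. Sequences are given 5′ to 3′ on the strand of the gene. RefSeq start sites on GRCm38.p6 gave 10 windows for 7 of the 10 genes, each with 250 bases before and 50 after the start. Both strands were searched for CACGTG and CACGCG, the E-box and the related class C site, for CACNAG, the N-box that HES proteins bind, for AGGTCA, the site of a single nuclear receptor, and for DR4, a pair of such sites with 4 bases between them that LXRs bind together with a retinoid X receptor. The window of *Abca1*, the classical LXR target, lies at chr4:53159846-53160145 on the minus strand and holds 1 CACGTG, shown in capitals, that begins at position -147 from the start.

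Abca1: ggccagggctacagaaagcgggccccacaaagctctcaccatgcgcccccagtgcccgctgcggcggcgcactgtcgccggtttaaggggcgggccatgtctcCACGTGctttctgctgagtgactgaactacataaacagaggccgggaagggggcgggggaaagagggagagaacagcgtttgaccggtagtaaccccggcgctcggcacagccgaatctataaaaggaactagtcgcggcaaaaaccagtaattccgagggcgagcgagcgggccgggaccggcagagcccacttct

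The window of *Lipa*, the lysosomal gene with the lowest mean in Rosa-Hes1 relative to control libraries, lies at chr19:34527425-34527724 on the minus strand. It holds 3 CACNAG, in capitals, that begin at -200, -59 and 37.

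Lipa: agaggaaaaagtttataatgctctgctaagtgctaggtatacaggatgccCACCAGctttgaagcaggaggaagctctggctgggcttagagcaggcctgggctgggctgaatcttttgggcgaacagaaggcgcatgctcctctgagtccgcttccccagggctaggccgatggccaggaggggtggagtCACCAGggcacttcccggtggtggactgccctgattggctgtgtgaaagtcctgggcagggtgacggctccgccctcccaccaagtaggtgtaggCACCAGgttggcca

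CACNAG was in 4 of the 10 windows of members and in 42.5% of 32851 windows of all genes. Among the 4 were overlapping windows of *Nr1h3* that hold the same site, which was thus counted repeatedly. The rest were that of *Lipa* and a window of *Apoe*, whose other windows held none. CACGTG was in 1 window of members (7.15% of all windows) and CACGCG in 1, that of *Soat1* (9.27% of all windows). The exact string AGGTCA was in none of the 10 windows (16.3% of all windows). DR4, as an exact pair of AGGTCA, was also in none (0.0152% of all windows). It is so rare in this form that no match was likely in 10 windows. Variants of AGGTCA were not searched for, so a window without a match may still hold an LXR site. A match in such a window is a string of letters and no evidence of binding.

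Of the 10 genes, 1 differed between the groups: *Npc1*, the lysosomal sterol exporter, was 1.21-fold higher in Rosa-Hes1 osteoclasts. The other 9, with the LXRs and both efflux transporters among them, did not pass the test (edgeR's quasi-likelihood test, Benjamini-Hochberg adjusted p under 0.05). With all libraries, the filter on low counts and no replicate block, none was lower in edgeR. With DESeq2, 1 was lower, against 876 of all 16954 tested genes. An unadjusted p under 0.05 from edgeR was found for 3 of the 10, in either direction, and for 25.7% of all tested genes. Over all tested genes 8.25% passed, 5.85% as higher and 2.41% as lower, so that 1 of 10 is near the background and is no result about the members as a group. The median log2 fold change of the 10 was 0.08, with a range of -0.34 to 0.46, and that of all tested genes was -0.01. Groups did not overlap for 1 member, against 31.2% of all tested genes. The mean CPM of each member was above that of at least 73.2% of the tested genes in both groups.

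**Figure D1:**
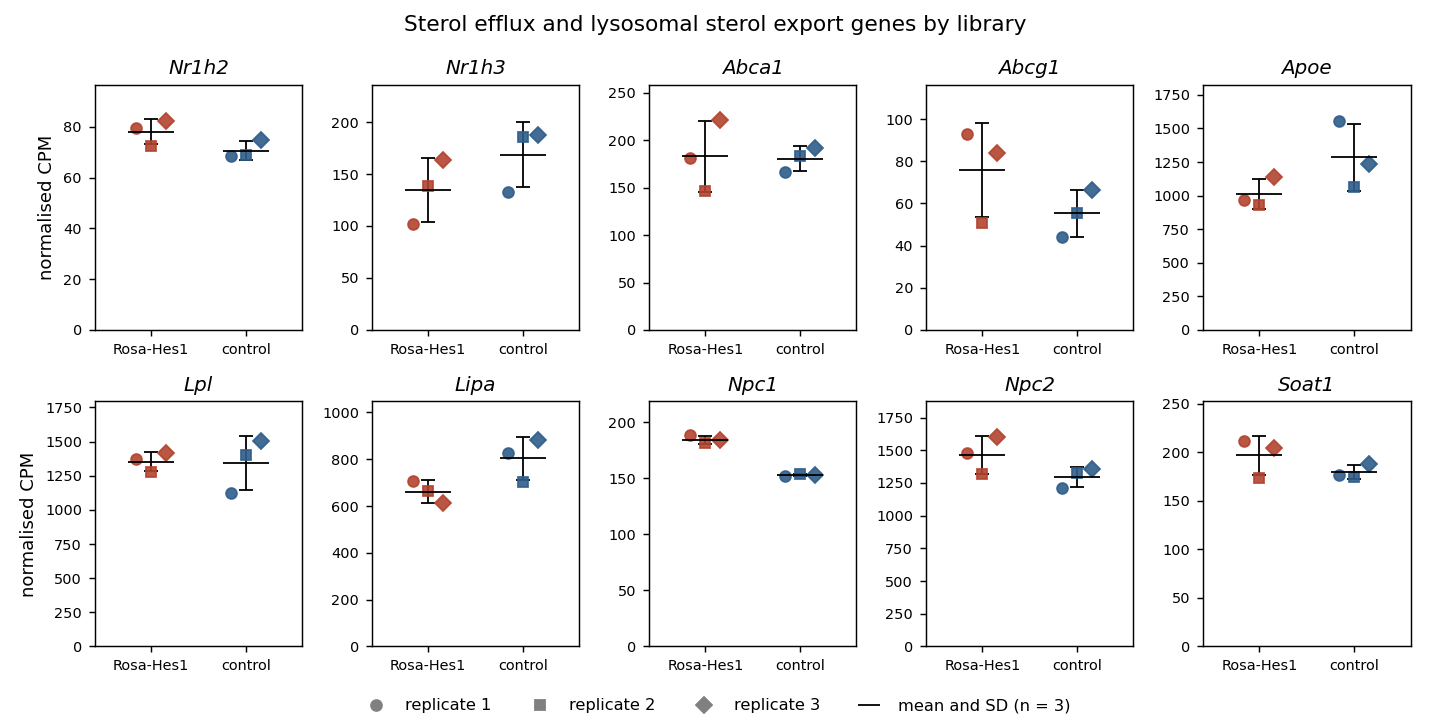
Normalised CPM (y axis, from 0) of the 10 genes in each library, with Rosa-Hes1 left of control. Symbols mark the replicate number and bars the mean and SD of 3 libraries. For *Npc1* every Rosa-Hes1 library (181.1 to 188 CPM) lies above every control library (152 to 154 CPM), and the groups overlap for the other 9 genes.

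The LXRs are the sensors of the route, and both were detected. *Nr1h2* (ENSMUSG00000060601, chromosome 7 from 44549616 to 44553951), which encodes the widely expressed LXRβ, had 79.6, 72.5 and 82.2 CPM in the Rosa-Hes1 libraries and 68.3, 68.8 and 74.8 CPM in the control libraries. Rosa-Hes1 replicate 2 lay below the highest control library and the other Rosa-Hes1 libraries lay above all controls. The log2 fold change was 0.14 (95% interval -0.03 to 0.32, adjusted p = 0.272 from edgeR). *Nr1h3* (ENSMUSG00000002108, chromosome 2 from 91184061 to 91202834), which encodes LXRα, the form that is prominent in macrophages and liver, had 102, 138 and 164 CPM in the Rosa-Hes1 libraries and 132, 186 and 188 CPM in the control libraries. In both groups replicate 1 was the lowest and the groups overlapped, with a log2 fold change of -0.32 (95% interval -0.79 to 0.14, adjusted p = 0.365 from edgeR). The interval spans folds of 0.578 to 1.10, the lowest bound of the 10 genes. The exons of *Nr1h3* overlap those of *Gm13783* on the same strand over 34 bases, and *Gm13783* had 12 counts in all 6 libraries together. Counts of *Nr1h3* per count of *Nr1h2* were 1.28, 1.91 and 2.00 in Rosa-Hes1 and 1.94, 2.70 and 2.51 in control libraries, a ratio within a library that no scaling between libraries enters. Of the 6 libraries Rosa-Hes1 replicate 1 had the lowest ratio, and Rosa-Hes1 replicate 3 lay above control replicate 1.

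ABCA1 and ABCG1 are pumps of the membrane that hand cholesterol to lipid-poor apolipoproteins and to mature lipoprotein particles, and their genes are the standard readout of LXR activity. *Abca1* (ENSMUSG00000015243, chromosome 4 from 53030787 to 53159895) had 181.5, 146.5 and 221 CPM in the Rosa-Hes1 libraries and 166, 184 and 192 CPM in the control libraries. The Rosa-Hes1 libraries held both the lowest and the highest value, and the means were 183 CPM in Rosa-Hes1 osteoclasts, with a coefficient of variation of 20.4%, and 181 CPM in control osteoclasts, with one of 7.20% (n = 3 each). The log2 fold change was 0.02 (95% interval -0.30 to 0.34, adjusted p = 0.957 from edgeR), which spans folds of 0.812 to 1.26. *Abcg1* (ENSMUSG00000024030, chromosome 17 from 31057675 to 31117988) had 93.2, 50.9 and 84.2 CPM in the Rosa-Hes1 libraries and 44.1, 55.6 and 66.4 CPM in the control libraries. Rosa-Hes1 replicates 1 and 3 were above every control and replicate 2 was below the control mean. *Abcg1* had the highest log2 fold change of the 10 genes and the widest interval, 0.46 (95% interval -0.14 to 1.05, adjusted p = 0.310 from edgeR). Without Rosa-Hes1 replicate 2 the log2 fold change was 0.68 and the adjusted p from edgeR was 0.0291, and with any other library left out the adjusted p was 0.252 to 0.589. Rosa-Hes1 replicate 2 was also the lowest of its group for *Nr1h2*, *Abca1*, *Apoe*, *Lpl*, *Npc1*, *Npc2* and *Soat1*. Over genes with at least 50 counts in the pair of libraries compared (11591 to 11812 genes), its distance to the control libraries, as a chi-square divided by its degrees of freedom, was 15.3 to 26.8, against 33.2 to 53.2 for the other Rosa-Hes1 libraries, where counting noise alone gives a value near 1. The ratio of *Abcg1* to *Abca1* counts was 0.514, 0.347 and 0.381 in Rosa-Hes1 and 0.265, 0.303 and 0.347 in control libraries, with Rosa-Hes1 replicate 2 and control replicate 3 side by side. This ratio was chosen after its values were seen and was not tested.

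The pattern of *Abca1* over the 6 libraries was set against 9092 genes that averaged 10 CPM or more, as the root mean square difference of log2 CPM after each gene was centred on its mean. The nearest 5 genes were *Fbxo6* (0.0526), *Cflar* (0.0593), *Agtrap* (0.0635), *Arl13b* (0.0663) and *Cd52* (0.0679), which share with it low values in Rosa-Hes1 replicate 2 and control replicate 1. With 6 libraries this is a description only, and none of the 10 members was among the 5.

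Apolipoprotein E, which macrophages secrete and which takes up exported cholesterol, and lipoprotein lipase, which frees fatty acids from lipoprotein triglyceride, are both secreted proteins of high transcript level. *Apoe* (ENSMUSG00000002985, chromosome 7 from 19696109 to 19699188) had 968, 929 and 1136 CPM in the Rosa-Hes1 libraries and 1553, 1061 and 1238 CPM in the control libraries. Rosa-Hes1 replicate 3 lay above control replicate 2, so that the groups overlapped, and control replicate 1 was the highest of all. The means were 1011 ± 110 CPM in Rosa-Hes1 osteoclasts, against 1284 ± 250 CPM in control osteoclasts (SD, n = 3 each), with a log2 fold change of -0.34 (95% interval -0.67 to -0.02, adjusted p = 0.171 from edgeR). The interval, which is not adjusted for the number of genes, leaves out 0, but the adjusted test was not passed. *Lpl* (ENSMUSG00000015568, chromosome 8 from 68880491 to 68907448) had 1371, 1279 and 1414 CPM in the Rosa-Hes1 libraries and 1122, 1398 and 1505 CPM in the control libraries. The control libraries held both extremes, and the log2 fold change was 0.01 (95% interval -0.23 to 0.26, adjusted p = 0.961 from edgeR). *Lpl* is also a gene of fat cells, and 7 adipocyte markers summed to 1.44 to 2.04 CPM in Rosa-Hes1 libraries and 2.23 to 3.54 CPM in control libraries, with *Adipoq*, *Lep* and *Cidec* at 0.

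Lysosomal acid lipase, the product of *Lipa*, frees cholesterol from its esters in the lysosome. The soluble protein NPC2 then carries the sterol to the membrane protein NPC1, which passes it out of the lysosome, and loss of either of the last proteins causes Niemann-Pick disease type C. *Npc1* (ENSMUSG00000024413, chromosome 18 from 12189692 to 12236400) was higher in Rosa-Hes1 osteoclasts. It had 188, 181.1 and 184 CPM in the Rosa-Hes1 libraries and 152, 154 and 153 CPM in the control libraries, and the groups did not overlap. The means were 185 ± 3.59 CPM in Rosa-Hes1 osteoclasts, against 153.0 ± 1.02 CPM in control osteoclasts (SD, n = 3 each), or 1.21-fold higher (log2 fold change 0.27, 95% interval 0.14 to 0.40, adjusted p = 0.0263 from edgeR). The coefficient of variation of *Npc1* was 1.94% in Rosa-Hes1 and 0.665% in control libraries, the lowest of the 10 genes in each group. At its 2061, 2489 and 2065 counts in control libraries, counting noise alone gives more than 0.665%. The closeness of the control values is thus no measure of how precise the level is. The log2 fold change was 0.26 to 0.28 whichever library was left out, but the adjusted p from edgeR then was under 0.05 only without Rosa-Hes1 replicate 2 (0.0171) and 0.0678 to 0.109 without any of the other 5. Over all genes the number that passed with 1 library left out was 265 to 2646, against 1399 with all 6. The exons of *Npc1* overlap those of *Rmc1* and of the antisense transcript *Gm15956* on the opposite strand over 601 bases, and whether strand was used in counting is not given in the sources used here. *Rmc1* had 77.8, 69.5 and 77.8 CPM in Rosa-Hes1 libraries and 69.2, 67.1 and 75.1 CPM in control libraries (log2 fold change 0.09, adjusted p = 0.517 from edgeR), and *Gm15956* had 10 counts in all 6 libraries together.

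*Npc2* (ENSMUSG00000021242, chromosome 12 from 84754562 to 84773152) had 1477, 1316 and 1602 CPM in the Rosa-Hes1 libraries and 1209, 1325 and 1356 CPM in the control libraries. Rosa-Hes1 replicates 1 and 3 were above all controls and replicate 2 lay among them (log2 fold change 0.18, 95% interval -0.02 to 0.38, adjusted p = 0.252 from edgeR). *Lipa* (ENSMUSG00000024781, chromosome 19 from 34492318 to 34527474) had 708, 664 and 613 CPM in the Rosa-Hes1 libraries and 827, 701 and 882 CPM in the control libraries. Rosa-Hes1 replicate 1 was just above control replicate 2, and without either of them the groups would not overlap. The log2 fold change was -0.28 (95% interval -0.50 to -0.06, adjusted p = 0.110 from edgeR), and the adjusted p was 0.0469 with DESeq2 and 0.0495 in edgeR when genes of low count were kept. The 3 lysosomal genes thus had log2 fold changes of both signs, positive for *Npc1* and *Npc2* and negative for *Lipa*. Only that of *Npc1* passed in the main edgeR test, and the difference between the genes was not tested.

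SOAT1 is the enzyme of the endoplasmic reticulum that attaches a fatty acid to cholesterol for storage in droplets. *Soat1* (ENSMUSG00000026600, chromosome 1 from 156424525 to 156474331) had 212, 174 and 205 CPM in the Rosa-Hes1 libraries and 176, 174 and 188 CPM in the control libraries. Rosa-Hes1 replicate 2 was the lowest of the 6 and the others of its group were the highest (log2 fold change 0.13, 95% interval -0.06 to 0.33, adjusted p = 0.377 from edgeR). Counts of *Soat1* per count of *Lipa*, the esterifying over the ester-cleaving enzyme, were 0.299, 0.262 and 0.334 in Rosa-Hes1 and 0.213, 0.249 and 0.213 in control libraries. Every Rosa-Hes1 library lay above every control library in this ratio, which averaged 0.298 ± 0.0364 in Rosa-Hes1 and 0.225 ± 0.0206 in control osteoclasts (SD, n = 3 each). The ratio was chosen after its values were seen and was not tested, and groups also did not overlap for 31.2% of all tested genes. For counts of *Npc1* per count of *Npc2* the groups overlapped. That ratio was 0.1275, 0.1376 and 0.1151 in Rosa-Hes1 and 0.1259, 0.1163 and 0.1126 in control libraries.

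**Figure D2:**
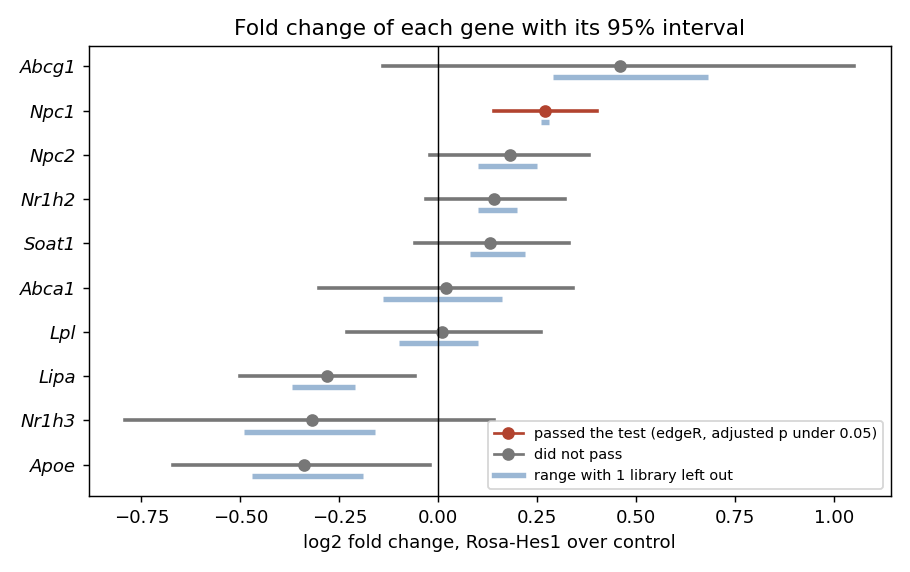
Log2 fold change of each gene, Rosa-Hes1 over control (x axis), with its unadjusted 95% interval from edgeR as a line and, just below it, the range of the fold change when 1 library is left out. *Npc1* (0.27) is the member that passed the test, *Abcg1* (0.46) has the widest interval and *Apoe* (-0.34) the lowest value.

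Levels of different genes were compared per kilobase of exon. *Apoe* was the most abundant, with 473 ± 51.4 CPM per kb in Rosa-Hes1 and 601 ± 117 CPM per kb in control osteoclasts (SD, n = 3 each). It was followed by *Npc2*, with 269 ± 26.4 CPM per kb in Rosa-Hes1 and 239 ± 14.3 CPM per kb in control osteoclasts (SD, n = 3 each), *Lpl*, *Lipa*, *Nr1h3*, *Nr1h2*, *Soat1*, *Abca1*, *Npc1* and *Abcg1*, in the same order in both groups. *Abcg1* had 10.4 ± 3.05 CPM per kb in Rosa-Hes1 and 7.59 ± 1.53 CPM per kb in control osteoclasts (SD, n = 3 each). In Rosa-Hes1 libraries, the values of *Nr1h2* and *Soat1*, of *Soat1* and *Abca1*, and of *Abca1* and *Npc1* overlapped, and in control libraries those of *Lpl* and *Lipa* and of *Soat1* and *Abca1* did. The place of *Npc1* depends on the length used: with the principal transcript, a choice made after the data were seen, it had 35.3 CPM per kb in Rosa-Hes1 and 29.3 CPM per kb in control osteoclasts, more than *Soat1* (23.5 in Rosa-Hes1 and 21.4 in control) and *Abca1* (17.8 in Rosa-Hes1 and 17.6 in control). *Nr1h3* had more reads per kb than *Nr1h2* in every library, and *Abca1* more than *Abcg1*.

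**Figure D3:**
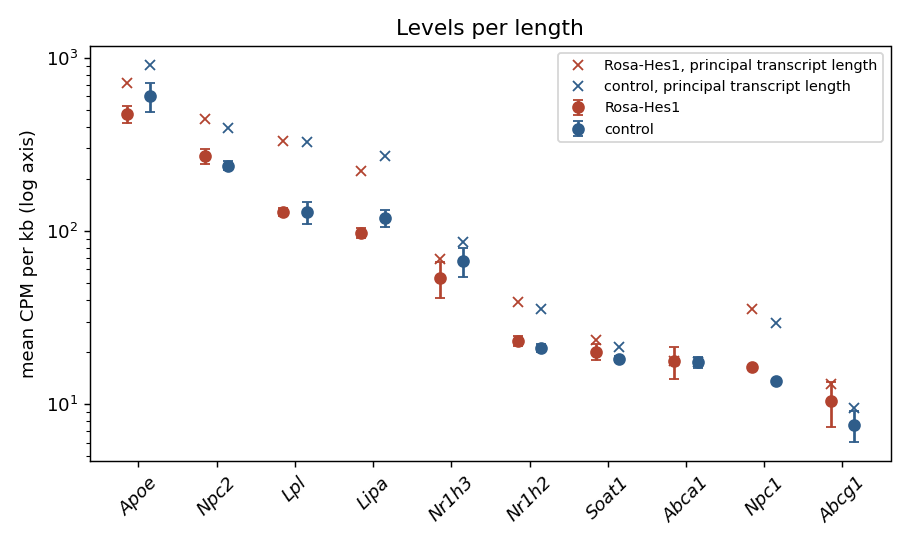
Mean CPM per kilobase of exon (log axis) of the 10 genes, with Rosa-Hes1 left of control in each pair. Points with SD bars (n = 3) use the union of exons and crosses the principal transcript. The genes run from *Apoe* (473 in Rosa-Hes1 and 601 in control) to *Abcg1* (10.4 in Rosa-Hes1 and 7.59 in control).

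Around the members, 6 lists of related genes were counted. Of 23 tested LXR partners and LXR targets other than the members, none was higher, 1 was lower and 22 did not pass in edgeR. Over all tested genes edgeR called 5.85% higher and 2.41% lower. An unadjusted p under 0.05 from edgeR was found for 10 of the 23 (25.7% of all tested genes had one). DESeq2 called 3 of the 23 higher and 2 lower, against 1302 higher and 876 lower of all 16954 tested genes. The lower gene was *Arl4c*, a small GTPase that LXRs induce in macrophages, with 36.0, 40.3 and 44.4 CPM in Rosa-Hes1 libraries and 63.7, 65.6 and 103 CPM in control libraries (log2 fold change -0.94, adjusted p = 0.0297 from edgeR). The adjusted p of *Arl4c* from edgeR was 0.112, 0.0629 and 0.0708 without Rosa-Hes1 replicates 1, 2 and 3, 0.0329 to 0.0438 without a control library, and 0.0925 without a filter on low counts. *Rxrb*, a partner of LXRs (log2 fold change 0.26, adjusted p = 0.0580 from edgeR), and *Lpcat3*, a phospholipid-remodelling LXR target (0.35, adjusted p = 0.0697), did not pass in edgeR. The median over the list was a log2 fold change of -0.08. Of 13 tested genes of lipoprotein and sterol uptake, none was higher (5.85% of all tested genes) and 1 was lower (2.41%) in edgeR. An unadjusted p under 0.05 from edgeR was found for 5 (against 25.7% of all tested genes). DESeq2 called 0 higher and 2 lower, against 1302 higher and 876 lower of all 16954 tested genes. The lower one was *Cxcl16*, a chemokine that is also a scavenger receptor (log2 fold change -0.51, adjusted p = 0.0101 from edgeR, and 0.0561 without Rosa-Hes1 replicate 1, which left no uptake gene lower). The scavenger receptor *Msr1* (-0.42, adjusted p = 0.0594) and the reelin receptor *Lrp8* (-0.44, adjusted p = 0.123) did not pass in edgeR, and the median of the list was -0.21.

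Of 25 tested genes of intracellular sterol transport, sterol sensing and oxysterol synthesis, 4 passed as higher (5.85% of all tested genes did) and 3 as lower (2.41% of all tested genes), 18 did not pass, and the list had a median log2 fold change of 0.02. An unadjusted p under 0.05 from edgeR was found for 12 of the 25 (25.7% of all tested genes had one). DESeq2 called 6 of the 25 higher and 3 lower, against 1302 higher and 876 lower of all 16954 tested genes. The higher genes included *Insig1*, which holds the sterol regulator SREBP in the endoplasmic reticulum, with 101, 65.6 and 87.8 CPM in Rosa-Hes1 libraries and 35.6, 41.2 and 41.5 CPM in control libraries (log2 fold change 1.10, adjusted p = 0.00799 from edgeR), and *Srebf2*, which encodes the sterol form of SREBP itself (0.41, adjusted p = 0.00958 from edgeR). *Scarb2*, a lysosomal membrane protein that delivers glucocerebrosidase (-0.42, adjusted p = 0.0112 from edgeR), and *Osbpl1a*, an oxysterol-binding protein of late endosomes (-0.54, adjusted p = 0.0147 from edgeR), were lower. The other 3 that passed were picked after their values were seen: *Insig2* (0.93, adjusted p = 0.0152) and *Osbpl8* (0.49, adjusted p = 0.0317) were higher and *Stard5* (-0.36, adjusted p = 0.0474) was lower in edgeR. Without 1 library, higher genes of this list numbered 1 (without Rosa-Hes1 replicate 1) to 7 (without Rosa-Hes1 replicate 2) and lower genes 0 (without Rosa-Hes1 replicate 1) to 3. With 1 library left out, *Insig1* passed in each of 6 fits, *Srebf2* and *Scarb2* in 5, *Osbpl1a* in 3, *Insig2* and *Stard5* in 2 and *Osbpl8* in 1. Among the members, *Npc1* had a smaller log2 fold change (0.27) than each of the 4 higher genes of the list.

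Of 7 other tested lipid transporters of the ABC family, 1 passed in edgeR (8.25% of all tested genes did). This was *Abca2*, a transporter of late endosomes and lysosomes. It had 158, 139.8 and 146 CPM in Rosa-Hes1 libraries and 100.4, 102 and 99.6 CPM in control libraries (log2 fold change 0.55, adjusted p = 0.00565 from edgeR, and under 0.05 with each library left out). Its relatives *Abca5* (-0.63, adjusted p = 0.265) and *Abca7* (-0.14, adjusted p = 0.352) did not pass in edgeR. An unadjusted p under 0.05 from edgeR was found for 1 of the 7. Of 14 tested genes of sterol esters, lipid droplets and neutral lipases, 3 were higher (5.85% of all tested genes) and none was lower (2.41%) in edgeR. The higher genes were the droplet coat protein *Plin3* (0.91, adjusted p = 0.00958 from edgeR), the lipase inhibitor *Hilpda* (0.83, adjusted p = 0.0298) and the lipase activator *Abhd5* (0.37, adjusted p = 0.0309). An unadjusted p under 0.05 from edgeR was found for 6 of the 14 (against 25.7% of all tested genes). DESeq2 called 1 gene of this list lower, against 876 of all 16954 tested genes. The ester hydrolase *Nceh1*, which works beside *Lipa* outside the lysosome, did not pass (0.29, adjusted p = 0.0983 from edgeR). Of 19 tested genes of lipoprotein lipase regulation and fatty acid handling, 1 was higher (5.85% of all tested genes) and 2 were lower (2.41%) in edgeR. The nuclear receptor *Ppard* was higher (0.71, adjusted p = 0.0101 from edgeR). The fatty acid carrier *Fabp5* (-0.51, adjusted p = 0.0116) and *Pparg*, the nuclear receptor of fat cells and macrophages (-0.93, adjusted p = 0.0168), were lower. *Lmf1*, the factor that matures lipoprotein lipase, did not pass (0.48, adjusted p = 0.0706 from edgeR). An unadjusted p under 0.05 from edgeR was found for 8 of the 19 (against 25.7% of all tested genes). DESeq2 called 2 of the 19 higher and 2 lower, against 1302 higher and 876 lower of all 16954 tested genes. With 1 library left out, *Plin3*, *Ppard* and *Fabp5* passed in each of 6 fits, *Abhd5* and *Pparg* in 2 and *Hilpda* in 1. The 3 lists had medians of -0.14, 0.03 and -0.17, and over the 6 lists together 16 of 101 tested genes passed, 9 higher and 7 lower, against 8.25% of all tested genes.

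**Figure D4:**
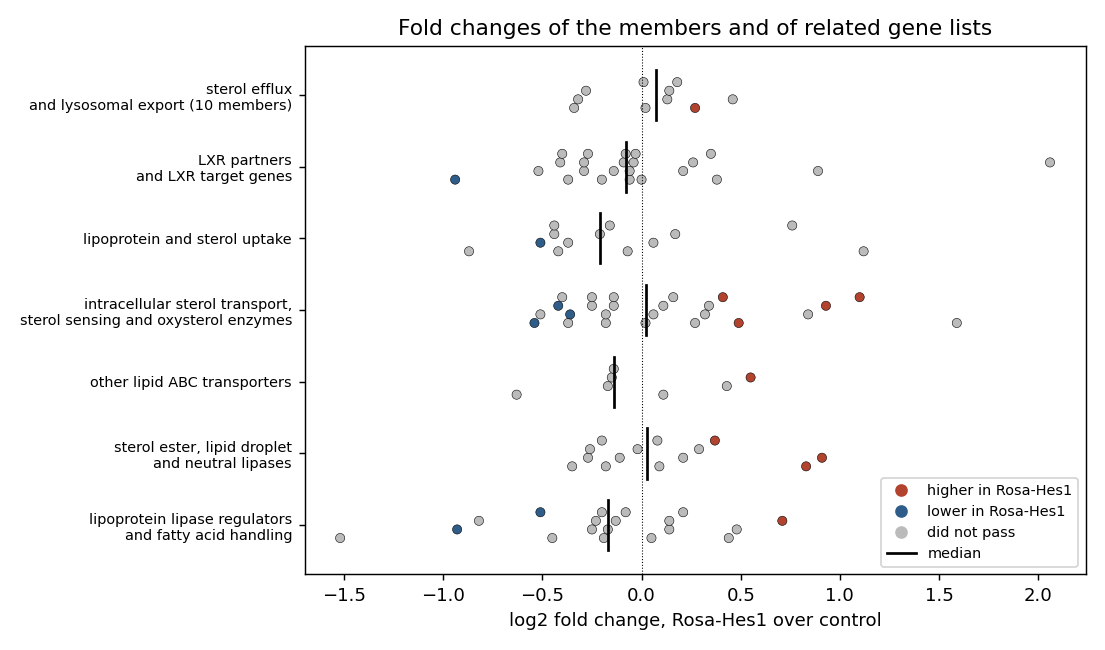
Log2 fold change, Rosa-Hes1 over control (x axis), of each tested gene of the members (top) and of the 6 related lists. Red points were higher, blue points lower and grey points did not pass in edgeR, and the black bar is the median (0.08 for the 10 members). The members lie between -0.34 and 0.46, while the lists reach to -1.52 and 2.06.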

How the data were processed

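RNA-Seq libraries of 3 Rosa-Hes1 and 3 control osteoclast cultures were analysed. The authors trimmed reads with Sickle, aligned them with HISAT2 2.1.0, handled alignments with samtools 1.9, removed duplicates with Picard and assigned them to genes with HTSeq-count. The deposited counts are raw, 1 value for each Ensembl mouse gene, and the 5 rows that name no gene (reads outside genes were 17.4% to 18.1% of a library) stayed out of library sizes and tests. The paper's methods name a human genome, but the submitters' processing notes name GRCm38 and the identifiers are mouse. Names, positions and exon lengths came from GENCODE M21 on GRCm38, and 0.322% of the identifiers had no symbol.

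Groups were compared in R 4.3.3 by the quasi-likelihood test of edgeR 4.0.16, with TMM factors, the robust option and group as the single term. A gene needed 10 counts over the 6 libraries together, and a Benjamini-Hochberg adjusted p under 0.05 over the 16954 tested genes was the threshold. Standard errors are the log2 fold change over the root of the F statistic, and 95% intervals follow from them and cover the spread between these libraries only. The authors ran DESeq2, with covariates that are not named in the sources used here. Chi-square values per degree of freedom between libraries of a group were 9.49 to 18.4, so that no pair of libraries was a copy. The code was tested on simulated data.

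The members and the gene lists were chosen with earlier results of these data known. Named genes are all members, the 4 genes of each list with the smallest adjusted p (some of which are not reported here), every gene that passed where a list had 5 or fewer, *Hes1*, *Rmc1*, which was added after the data were seen because it overlaps a member, and the 5 genes nearest to *Abca1*; others are said to have been chosen after their values were seen. Alternatives were DESeq2's size factors, the upper quartile, filterByExpr, no filter, DESeq2 1.42.0 as a whole (Wald test), voom of limma 3.58.1 with sample quality weights, the replicate number as a block, and leaving out each library.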

Additional observations from a re-analysis of the deposited data

How the results depend on the processing

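Of 520 refits of the 40 named genes under 13 alternatives, 440 kept the direction and the side of the threshold, 46 lost and 30 gained the call, and 4 changed sign, those of *Abca1* (-0.04 when control replicate 1 was left out, -0.14 when Rosa-Hes1 replicate 3 was) and *Lpl* (-0.10 and -0.02 in the same fits), whose log2 fold changes ranged from -0.14 to 0.16 and from -0.10 to 0.10 with 1 library left out. Members called higher numbered 1, and 0 to 2 with 1 library left out. Those called lower numbered 0, and 0 in each of the 6 leave-one-out fits, but 1 (*Lipa*) without a filter on low counts or with DESeq2. Over all genes, 1399 passed with all libraries, 265 to 2646 with 1 left out, 2178 with DESeq2 and 2335 with limma-voom.

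In edgeR with a replicate block, *Npc1* did not pass (adjusted p = 0.0567), so that 0 members were higher, *Nr1h3* passed as lower (1 member, adjusted p = 0.0495), 1 gene of the sterol ester list was higher and 2 of the uptake list were lower. Deviations from the group means correlated at -0.03, -0.14 and 0.38 across 12494 genes for libraries with the same number, and not every library correlated best with its own number, so the numbers were not taken as pairs.

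For LXR partners and targets, higher genes numbered 0, and 2 with filterByExpr, 1 without a filter, 3 with DESeq2 or limma-voom and 0 to 4 with 1 library left out, and lower genes 1, and 2 with DESeq2 or limma-voom and 0 to 1 with 1 library left out. Lower uptake genes numbered 1, and 2 without a filter or with DESeq2 and 0 to 3 with 1 library left out. Sterol transport and sensing genes numbered 1 to 7 higher and 0 to 3 lower with 1 library left out. Sterol ester and droplet genes numbered 1 to 4 higher and 0 to 1 lower with 1 library left out, and 1 lower with DESeq2. Fatty acid genes numbered 2 higher without a filter, with DESeq2 or with limma-voom, and 1 to 2 higher and 1 to 2 lower with 1 library left out. The cause of these changes was not tested.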

Other observations

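*Scd2*, a desaturase that makes monounsaturated fatty acids and a target of both LXRs and SREBP, was chosen after its values were seen, as the LXR target with the largest mean difference. It had 388, 97.2 and 226 CPM in the Rosa-Hes1 libraries and 54.0, 64.3 and 52.0 CPM in the control libraries. Every Rosa-Hes1 library was above every control, but the Rosa-Hes1 values spread widely and the gene did not pass (log2 fold change 2.06, adjusted p = 0.0849 from edgeR, 0.00473 without Rosa-Hes1 replicate 2 and 0.129 to 0.206 without any other library). It also passed with filterByExpr (adjusted p = 0.0422 from edgeR) and with DESeq2 (adjusted p = 0.00265). Its lowest Rosa-Hes1 value was in replicate 2, as for *Abcg1*, *Insig1* and *Insig2*.

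Several listed genes were at or near 0 in these cultures. *Apoc2*, *Apoc4*, *Abcg5*, *Hsd3b7* and *Gpihbp1* had 0 counts in all 6 libraries, and *Abcg8* (1 count), *Plin1* (1 count), *Cyp7b1* (3 counts), *Plin4* (4 counts), *Abcg4* (6 counts) and *Plin5* (7 counts) were also left untested. *Abcg4*, the close relative of *Abcg1*, was thus hardly detected, and *Soat2*, the relative of *Soat1*, averaged 1.31 ± 0.239 CPM in Rosa-Hes1 osteoclasts, against 1.67 ± 0.0517 CPM in control osteoclasts (SD, n = 3 each).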
